A study of Mus musculus with 2 samples.

Results

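Ion channel genes were read from 2 Affymetrix arrays, 1 of osteoclasts and 1 of macrophages grown from mouse bone marrow. The members are all genes whose symbol begins with Kcn, Cacn, Trpc, Trpm, Trpv, Clcn, Clic, P2rx or Lrrc8, except Clcn7, the chloride exchanger gene of acid secretion, which the rule leaves out. They numbered 149 of the 18193 genes that had a probe set with a single gene symbol, and 310 probe sets stood for them. Where a gene had several, the probe set brightest on average across the arrays (mean of log2 signals) was taken, whatever its difference. By name, 4 of the 149 are not channel subunits: the noncoding RNA gene Kcnq1ot1, the antisense genes Kcnmb4os1 and Kcnmb4os2, and Trpc4ap, which encodes a protein that binds a TRPC channel.

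Per the labels, marrow cells of C57/Black6 mice aged 8 weeks were first kept for 3 days with M-CSF, the growth factor of the macrophage lineage. Adherent cells from this step served as progenitors for both groups. The osteoclast group then received M-CSF together with RANKL, a cytokine under which these cells become osteoclasts, and the macrophage group M-CSF alone, with lysis after 6 days. Each group is 1 array, and no test between the groups was possible. The labels do not say how many mice were used or whether both groups came from the same animals. Sex-linked signals, given below, differed between the arrays.

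Channels let ions cross membranes down their gradients. Potassium channels set the resting voltage of myeloid cells and so the drive for calcium entry, while TRP channels and the ATP-gated P2X receptors admit calcium and other cations, and calcium signals switch on osteoclast genes. Chloride transporters of the Clcn family balance the charge moved by proton pumps in endosomes, lysosomes and the resorption space, and Lrrc8 proteins form the anion channel that cells open when they swell.

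All signals below are the deposited linear intensities. Signals under a floor, set at the 40th percentile of probe sets other than controls, were treated as not measured. It was 14.4 in the osteoclast array and 17.0 in the macrophage array. A stricter level was the 95th percentile of 80 probe sets for olfactory and vomeronasal receptors, genes of sensory neurons. This receptor level was 25.7 in the osteoclast array and 28.2 in the macrophage array. The median log2 difference, osteoclast over macrophage, was -0.43 over 23708 probe sets that passed the floor in both. The offset was smaller near background, at -0.24 between the floors and -0.13 between the receptor levels, so that a probe set held at the floor in both arrays would read 0.19 relative to the shift. Differences are therefore given relative to this shift, and the difference as deposited is 0.43 lower, except where a bound was held at 0. Values below the floor were raised to it. A difference of a gene above the floor in 1 array is thus a bound, and its fold is also given as "at least", with the dimmer signal at the receptor level. The only error at hand was the spread between probe sets of 1 gene, with an SD of 0.49 over 14641 probe sets of 5435 genes, and of 0.59 over 46 probe sets of 17 members. It leaves out all variation between cultures and animals.

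The arrays carried their labelled cells. All 8 osteoclast markers read here, among them Acp5 and Ctsk, were at least 2-fold higher in the osteoclast array, while of 8 macrophage markers 3 were at least 2-fold lower there and all stayed above the floor in both. The arrays also differed in Xist, the RNA of female cells, with signals of 22.1 in osteoclasts and 1872 in macrophages, and in the Y-linked gene Eif2s3y, with 321 in osteoclasts and 0.571 in macrophages. The Y-linked genes Uty and Kdm5d were above the floor in osteoclasts alone, with 72.7 and 63.5 there and 14.7 and 6.14 in macrophages. The 2 arrays thus differed in the sex of the cells they mainly held. The effect of RANKL and differences between animals of the 2 arrays cannot be told apart. Of 8 granulocyte markers 7 were at least 2-fold higher in the osteoclast array, where their summed signal was 6057, against 3227 in the macrophage array. The summed signal of 6 stromal markers was 6312 in osteoclasts and 12099 in macrophages. That of 6 megakaryocyte and platelet markers was 1840 in osteoclasts and 8723 in macrophages. Most of it came from Pf4 alone, with 1609 in osteoclasts and 8488 in macrophages. Of these 6 markers 2 were at least 2-fold lower in osteoclasts and 1, Vwf, was higher, with 95.5 in osteoclasts and 13.9 in macrophages. Summed signals of B lymphocyte (3 genes), T lymphocyte (4), mast cell (5), endothelial (4), erythroid (3) and nerve cell (5) markers lay between 35.8 and 208 in osteoclasts and between 105.66 and 628 in macrophages. The part of these other cells in the results below was not tested. In bulk samples, fewer cells of a type and less RNA per cell cannot be told apart.

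Most of the channel genes lay near background. In both arrays 64 of the 149 members, 43%, were below the floor by the probe set used, against 25% of all genes, with signals between 0.237 and 13.4 in osteoclasts and between 0.223 and 16.04 in macrophages. Under the receptor level in both arrays were 99 members, 66.4%, against 36.7% of all genes. Of the rest, 54 members (36.2%) passed the floor in both arrays, where 63% of all genes did. A further 15 (10.1%) passed it in the osteoclast array only, against 5.42% of all genes, and 16 (10.7%) in the macrophage array only, against 6.55%. Of the 64 members below the floor, 2 had another probe set above it in osteoclasts alone. These were Cacnb2, with 31.6 in osteoclasts and 0.384 in macrophages, and Kcng1, with 15.7 in osteoclasts and 2.23 in macrophages, and neither was counted as measured. The probe sets used gave a reading for 85 members, and the 50 above the receptor level in at least 1 array stood clear of the stricter background.

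Detection differed by kind of channel. Among potassium channel genes 42 of 81 were above the floor in at least 1 array and 18 above the receptor level. For the voltage-gated calcium channel genes these counts were 14 and 6 of 24, and for the TRP genes 11 and 9 of 18. Among the Clcn, Clic, Lrrc8 and P2rx genes, 16 of 22 were above the floor and 15 above the receptor level. The other 6 of these 22 were below the floor in both arrays, a share near the 25% of all genes. Under the receptor level in both arrays were 36.7% of all genes. The voltage-gated potassium subunits, known best from nerve and muscle, had 16 of 31 genes below the floor in both arrays by the probe set used, Kcng1 among them, and 2 above the receptor level in both. No difference in detection between kinds was tested, since probe sets of different genes differ in sensitivity.

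**Figure D1:**
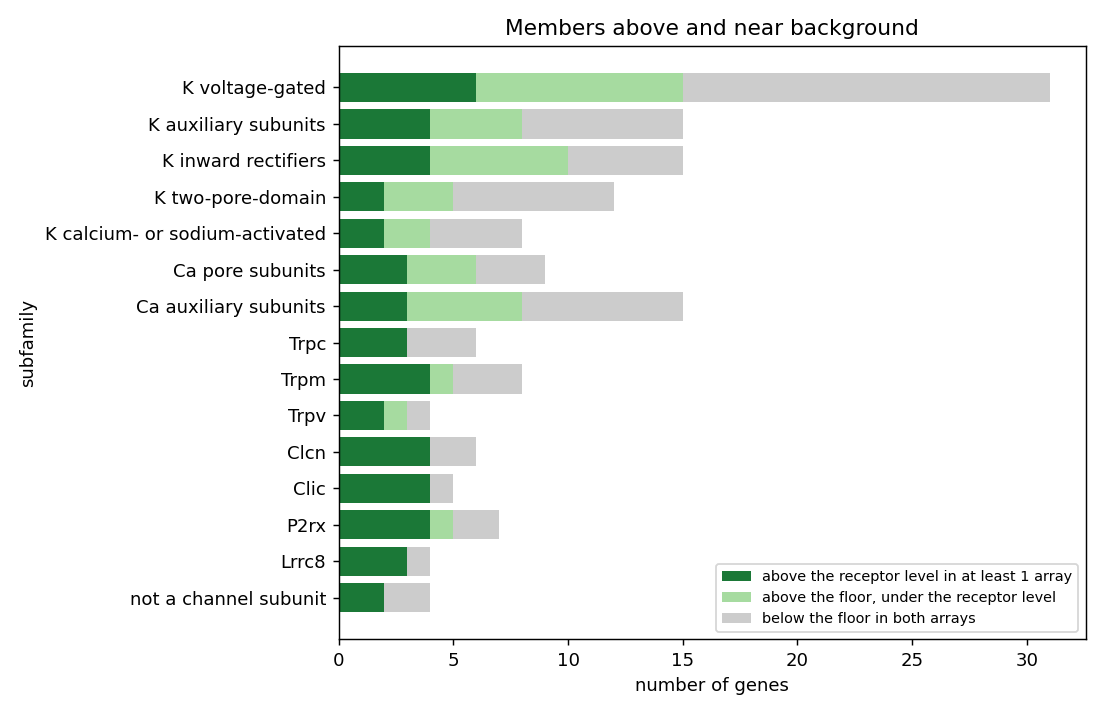
Bars give the number of member genes in each subfamily (horizontal axis, genes; vertical axis, subfamily), divided into genes above the receptor level in at least 1 array, genes between the floor and that level, and genes below the floor in both arrays. By the probe set used, 16 of 31 voltage-gated potassium genes were below the floor in both arrays, while all 4 measured Clcn and all 4 measured Clic genes were above the receptor level in at least 1 array.

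Between osteoclasts and macrophages, few channel genes were far apart. Relative to the shift 5 of the 85 measured members, 5.88%, were at least 2-fold higher in osteoclasts, where 7.11% of all 13647 measured genes were, and 6 members, 7.06%, were at least 2-fold lower, where 6.99% of all genes were. Both shares are near the background. The median difference was -0.11 over the members and 0.00 over all measured genes, and -0.54 and -0.43 as deposited. As deposited, 4 members were at least 2-fold higher (background 3%) and 21 at least 2-fold lower (background 17.5%). Among the 30 members above the receptor level in both arrays, 23 lay below the shift, 76.7%, against 51.7% of all such genes. Their median was -0.26, and that of all genes at this level -0.02.

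**Figure D2:**
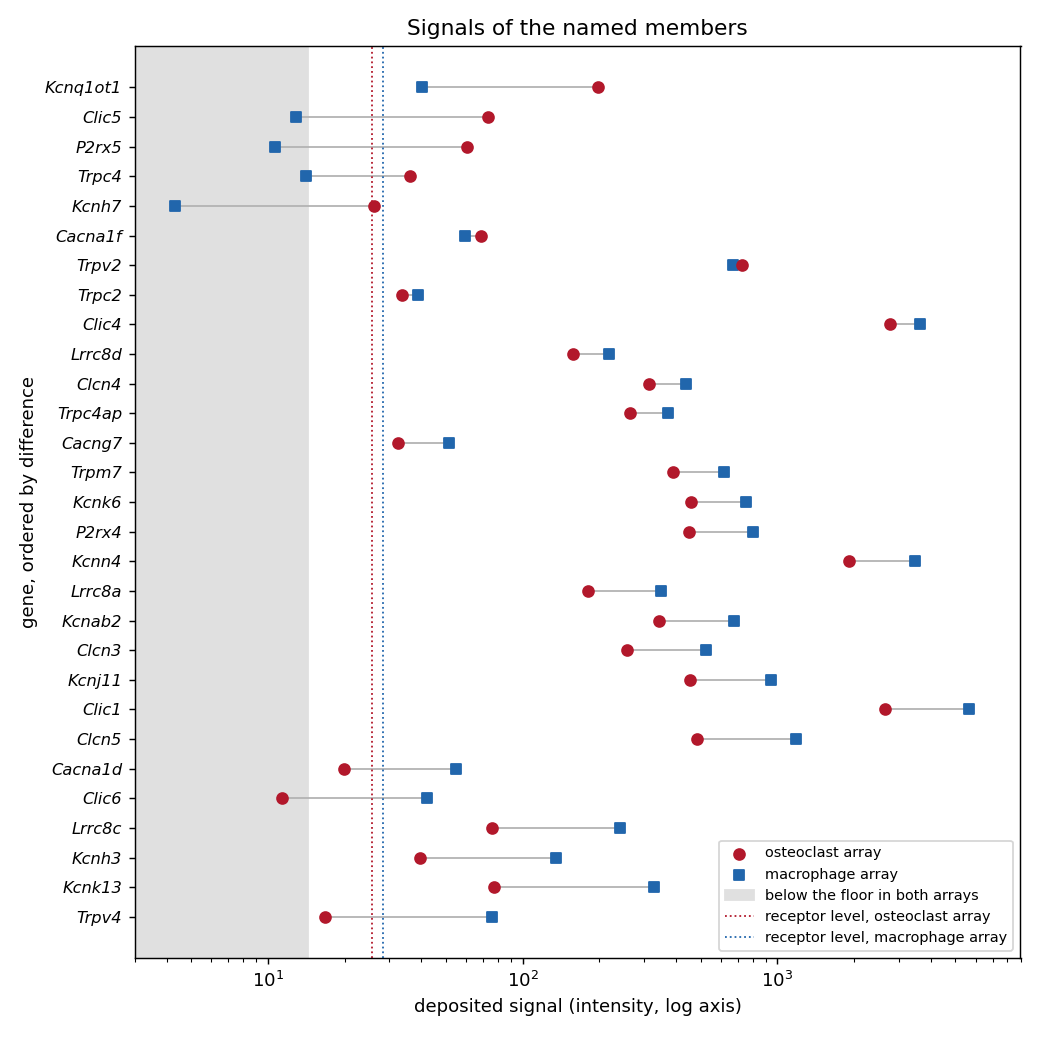
Each row is 1 of the 29 named members, ordered by difference. Circles give the deposited signal in the osteoclast array and squares that in the macrophage array, on a log axis of intensity, and dotted lines give the receptor level of each array. Clic5, P2rx5, Trpc4 and Kcnh7 at the top, below Kcnq1ot1, had macrophage signals under the floor, and the brighter genes in the middle lay mostly to the left in osteoclasts. Deposited signals carry the array shift. Most of all genes above the receptor level in both arrays were lower in osteoclasts too, with a deposited upper quartile of -0.09.

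Clic5, P2rx5 and the noncoding Kcnq1ot1 were at least 4-fold higher in osteoclasts relative to the shift when macrophage signals below the floor were raised to it, 3 members where 1.34% of all genes were. With the dimmer signal at the receptor level, Kcnq1ot1 alone of the 3 was 4-fold higher. Clic5 encodes a member of the chloride intracellular channel family that is known for its place beside ezrin in the stereocilia of inner ear hair cells. Its signal was 73.2 in osteoclasts and 12.9 in macrophages, below the floor, which makes it higher by at least 3.51-fold against the shift and at least 2.60-fold as deposited. A second probe set gave 57.4 in osteoclasts and 9.23 in macrophages, and another 32.6 in osteoclasts and 2.91 in macrophages, so that all 3 probe sets above the floor had their signal in the osteoclast array alone. The last of its 4 probe sets was below the floor in both.

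The stretch upstream of Clic5 is shown because it was 1 of the 2 channel subunit genes that were 4-fold apart with the dimmer signal at the floor, and the RefSeq promoter table (GRCm38.p6) holds it. It lies at chr17:44188322-44188571 on the plus strand and covers the 250 bases before the annotated start, of which the 50 next to the start are in capitals.
Clic5: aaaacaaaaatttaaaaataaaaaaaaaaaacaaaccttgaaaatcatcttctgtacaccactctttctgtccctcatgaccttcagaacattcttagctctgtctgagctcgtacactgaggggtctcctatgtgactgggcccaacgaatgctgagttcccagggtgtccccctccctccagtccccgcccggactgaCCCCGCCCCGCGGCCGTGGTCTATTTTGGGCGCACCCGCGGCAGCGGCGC
The window, with the 50 bases after the start, was searched on both strands for TGANTCA, the core letters of AP-1 sites, and GGAAA, those of NFAT sites. Neither was in it. Of 32851 promoters of this length 7.81% hold the first and 61.3% the second, and of 160 promoters of 118 members 4.38% and 55.6% do. These matches are letters only and say nothing of binding.

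P2rx5 encodes an ATP-gated cation channel of the P2X family that has been linked to the multinucleation of mouse osteoclasts. Its 1 probe set gave 60.6 in osteoclasts and 10.7 in macrophages, below the floor. It was higher by at least 2.90-fold against the shift and at least 2.15-fold as deposited. With a single probe set, no second reading of the gene was at hand.

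The other members of the P2X family lay lower or near background. P2rx4, a P2X receptor found in macrophage lysosomes, gave 449 in osteoclasts and 802 in macrophages, a difference of -0.40, and its second bright probe set gave -0.29. The other 2 were below the floor in osteoclasts alone. P2rx7, whose opening by ATP leads to interleukin 1 release in macrophages, gave 106.04 in osteoclasts and 226 in macrophages. Its difference of -0.66 was not borne out evenly by its other probe sets, at -0.38 and 0.06. P2rx1, the P2X receptor of platelets, gave 31.7 in osteoclasts and 25.2 in macrophages, where it was under the receptor level. The family thus held 1 gene at least 2-fold higher, P2rx5, and none at least 2-fold lower among 5 measured.

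Kcnq1ot1 is the antisense noncoding RNA of the imprinted Kcnq1 locus. Its signal was 198 in osteoclasts and 40.2 in macrophages, a difference of 2.74, above the receptor level in both arrays. Of its 6 probe sets 4 were above the floor, all in both arrays, with differences between 0.83 and 2.74. Kcnq1, the potassium channel gene of the same locus, was below the floor in both arrays, with 4.10 in osteoclasts and 8.55 in macrophages.

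Trpc4 and Kcnh7 completed the members at least 2-fold higher, both as bounds near background. Trpc4, a cation channel opened downstream of phospholipase C, gave 36.2 in osteoclasts and 14.1 in macrophages and was higher by at least 1.73-fold against the shift, with its other 2 probe sets below the floor in both arrays. Kcnh7, a potassium channel subunit of the erg group, gave 26.1 in osteoclasts and 4.30 in macrophages. At the receptor level it was higher by at least 1.25-fold against the shift and not higher as deposited.

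Of the 6 members at least 2-fold lower in osteoclasts, 3 were above the receptor level in both arrays. Kcnk13 encodes THIK-1, a two-pore-domain channel that carries the resting potassium current of microglia. Its signal was 76.9 in osteoclasts and 329 in macrophages, a difference of -1.66, with its other probe set below the floor in both. Lrrc8c, a subunit of the swelling-activated anion channel, gave 75.6 in osteoclasts and 241 in macrophages (-1.24), and its second probe set 55.7 in osteoclasts and 159 in macrophages (-1.08). Kcnh3, a voltage-gated potassium channel subunit of the brain, gave 39.4 in osteoclasts and 136 in macrophages (-1.35). Its probe sets disagreed, since the other 2 above the floor lay at -0.24 and 0.08.

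The other 3 lower members were near background in osteoclasts. Trpv4, a calcium-permeable channel known to take part in late osteoclast differentiation in mice, gave 16.8 in osteoclasts and 75.5 in macrophages, lower by at least 2.17-fold against the shift. Clic6, a further chloride intracellular channel gene, gave 11.4 in osteoclasts, below the floor, and 42.2 in macrophages, at least 1.22-fold lower. Cacna1d, the pore subunit of the L-type calcium channel Cav1.3, gave 19.9 in osteoclasts and 54.8 in macrophages, at least 1.58-fold lower, and its second probe set lay at -0.40. None of the 6 was 4-fold lower relative to the shift, as 0.923% of all genes were. As deposited, Trpv4 and Kcnk13 were 4-fold lower, where 2.13% of all genes were.

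**Figure D3:**
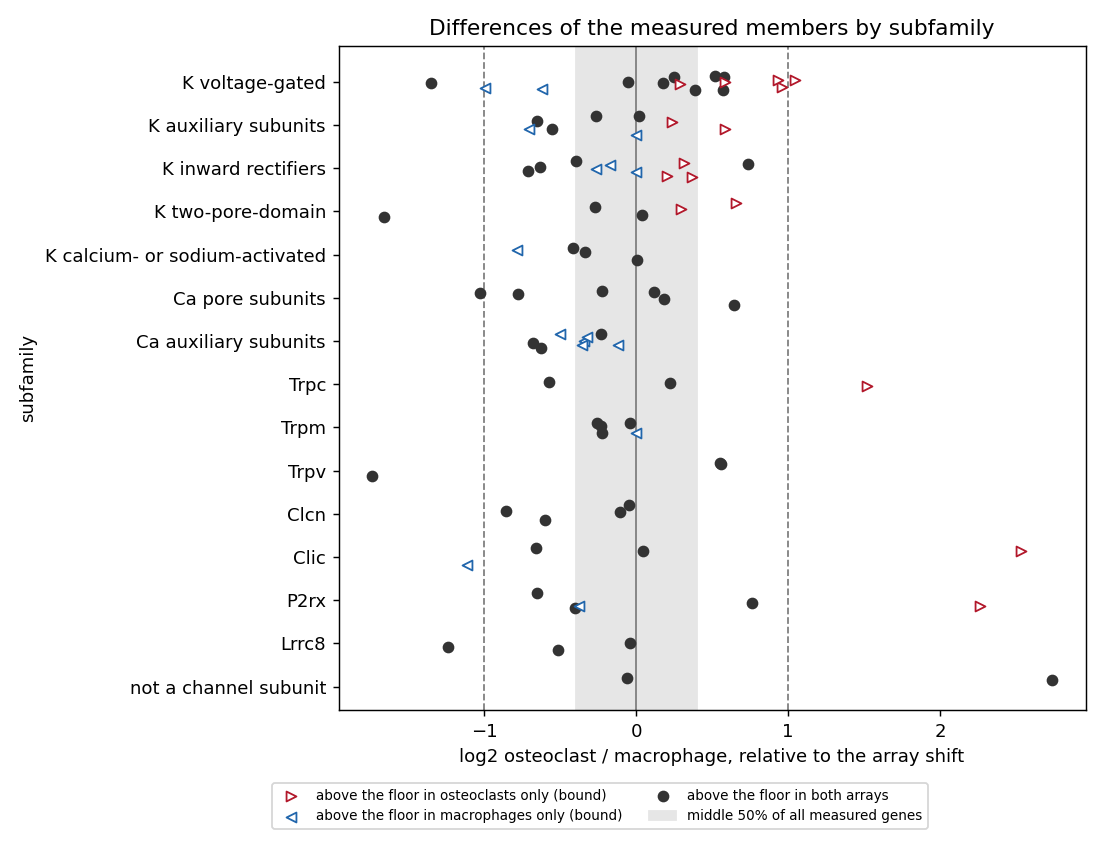
Points give the log2 difference, osteoclast over macrophage relative to the array shift, of each of the 85 measured members by subfamily. Open triangles are bounds of genes above the floor in 1 array, dashed lines mark 2-fold, and the grey band holds the middle 50% of all measured genes. Of the 85 points 11 lie beyond the dashed lines, from Trpv4 at -1.74 to Kcnq1ot1 at 2.74.

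The members with the brightest probe sets differed by less than 2-fold. The 15 with the highest mean signal had differences between -0.86 and 0.55, with 13 below the shift and 2 above it. Of all genes above the receptor level in both arrays, 51.7% lay below the shift, with lower and upper quartiles of -0.40 and 0.35. As deposited, 14 of the 15 were lower in osteoclasts, and Trpv2 alone was higher. Most of all genes at this level were lower too, since their deposited upper quartile was -0.09. Within the probe set SD of all genes, 0.49, lay 8 of the 15, 6 were lower by more, and 1, Trpv2, was higher by more. By their quartiles, most of all genes at this level also lay within 0.49 of the shift. Within the SD of the members' own probe sets, 0.59, lay 11, and 4 were lower by more. Signals of different probe sets do not rank the transcripts, so each gene is compared only between the arrays.

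Of the 15, 3 belong to the Clcn family. Clcn3, Clcn4 and Clcn5 encode chloride/proton exchangers of endosomes. Clcn5 gave 483 in osteoclasts and 1179 in macrophages (-0.86), with all 4 probe sets below the shift, between -1.31 and -0.12. Clcn3 gave 256 in osteoclasts and 523 in macrophages (-0.60). Of its 5 probe sets 4 lay between -0.79 and -0.53, and 1 dim set at 1.30. Clcn4 gave 313 in osteoclasts and 436 in macrophages (-0.05), but its second probe set lay at -1.10. Clcn6, of late endosomes, was dimmer, with 50.9 in osteoclasts and 73.9 in macrophages (-0.11). All 4 measured members of the family were thus below the shift, as were 51.7% of all genes above the receptor level in both arrays. By the probe sets used, Clcn4 and Clcn6 lay well within the probe set SD of 0.49. Clcn7, outside the rule, gave 1672 in osteoclasts and 381 in macrophages (2.57). The difference between Clcn7 and the others was not tested.

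Clic1 and Clic4 encode small proteins that occur both dissolved in the cytosol and in membranes. Clic1 gave 2650 in osteoclasts and 5641 in macrophages, a difference of -0.66 from its 1 probe set. Clic4 gave 2775 in osteoclasts and 3624 in macrophages (0.05), and its 3 probe sets, between -0.09 and 0.05, were close together. The Clic family therefore held Clic5 higher, Clic6 lower and these 2 within 2-fold.

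Lrrc8a, the subunit that every swelling-activated anion channel needs, gave 181 in osteoclasts and 349 in macrophages (-0.51). Its partner Lrrc8d gave 157 in osteoclasts and 219 in macrophages (-0.04), with the second probe set at 0.08. Lrrc8e was below the floor in both arrays. Of the 3 measured subunits only Lrrc8c was at least 2-fold apart.

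The 4 potassium channel genes among the 15 all lay below the shift, against 51.7% of all genes above the receptor level in both arrays. Kcnn4 encodes KCa3.1, the calcium-activated channel that keeps the voltage of macrophages negative during calcium signals. It gave 1918 in osteoclasts and 3453 in macrophages (-0.42), and 637 in osteoclasts and 1479 in macrophages from its second probe set (-0.78). Kcnj11, the pore of the ATP-sensitive potassium channel, gave 452 in osteoclasts and 947 in macrophages (-0.63). Its other probe set went the other way as a bound near background (1.14).

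Kcnk6, the two-pore-domain channel TWIK2, gave 460 in osteoclasts and 750 in macrophages (-0.27). Kcnab2, the beta subunit that binds voltage-gated channels of the Kcna group, gave 342 in osteoclasts and 677 in macrophages (-0.55). Its second probe set gave -0.43. Among the pore subunits it could bind, Kcna3, the main such channel of lymphocytes and macrophages, read 27.4 in osteoclasts and 25.8 in macrophages, about the receptor level. By the probe sets used, Kcna2 and Kcna4 were above the floor in osteoclasts alone, with 24.6 and 24.1 there, under the receptor level, and 4.84 and 7.92 in macrophages. Another Kcna2 probe set went the other way, with 5.19 in osteoclasts and 17.2 in macrophages, just above the floor.

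**Figure D4:**
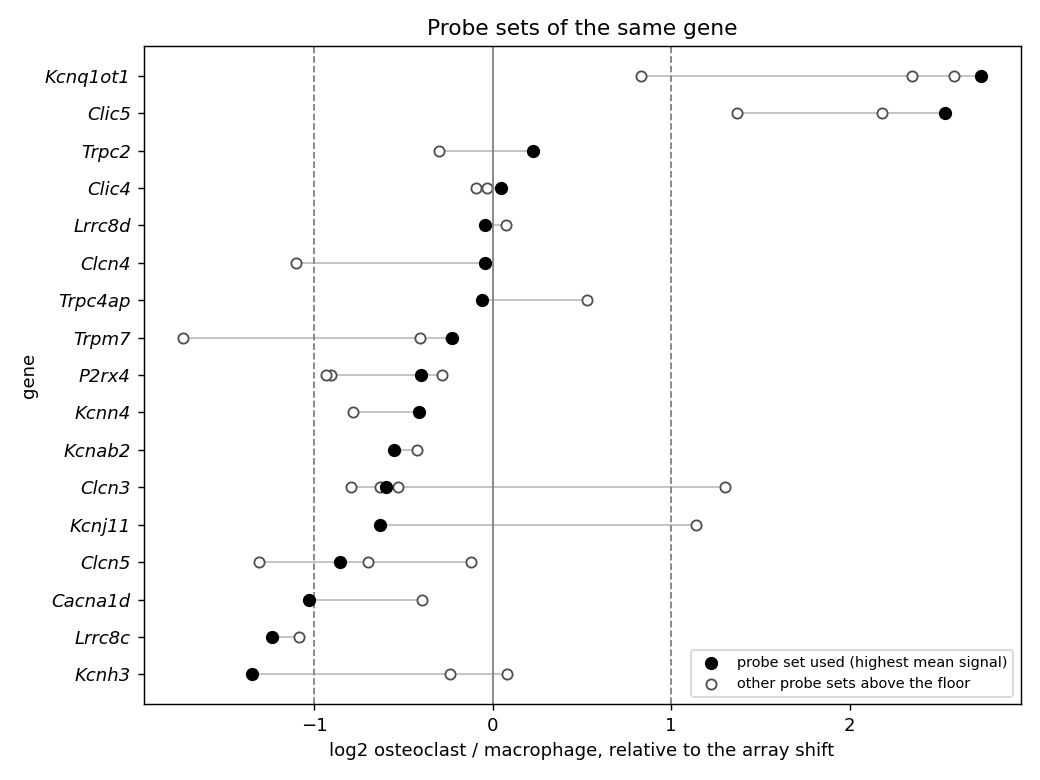
Each row is a named member with over 1 probe set above the floor. Points give the log2 difference of each probe set, osteoclast over macrophage relative to the array shift, with the one used filled and dashed lines at 2-fold. Clic4, Lrrc8d, Lrrc8c and Kcnab2 have probe sets close together, while those of Clic5, Clcn5, Kcnq1ot1, Trpm7, Clcn3, Kcnj11, Clcn4 and Kcnh3 are spread by over 1 log2 unit. Bounds are not marked. Every Clic5 point and the higher Kcnj11 point are bounds, with the macrophage signal raised to the floor. The spread of Clic5 here thus follows its osteoclast signals alone.

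Of the 18 TRP genes 9 were above the receptor level in at least 1 array, and 5 in both. Trpv2, a cation channel of macrophages that supports phagocytosis, gave 726 in osteoclasts and 667 in macrophages, a difference of 0.55. Trpm7, a magnesium and calcium channel joined to a kinase, gave 390 in osteoclasts and 617 in macrophages (-0.23), with its other 3 probe sets between -1.74 and -0.24. Trpm2, opened by oxidants through ADP-ribose, gave 39.5 in osteoclasts and 62.3 in macrophages (-0.22). Trpm4, which is opened by calcium and passes sodium, gave 38.1 in osteoclasts and 61.7 in macrophages (-0.26). Trpc2, a channel of the mouse vomeronasal organ, gave 33.6 in osteoclasts and 38.8 in macrophages (0.23), and its other single-symbol probe set -0.30. Trpc4ap gave 264 in osteoclasts and 372 in macrophages (-0.06), and its dimmer probe set 0.53.

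The voltage-gated calcium channel genes stayed dim. Cacna1f, the pore of Cav1.4, best known from the retina and also found in immune cells, gave 68.5 in osteoclasts and 59.3 in macrophages (0.64), the 1 pore subunit above the receptor level in both arrays. Cacng7, an auxiliary subunit known from brain, gave 32.5 in osteoclasts and 51.3 in macrophages (-0.23). By the probe sets used, the 8 measured auxiliary subunits lay between -0.68 and -0.12, and 7 of them were under the receptor level in osteoclasts. Other probe sets did not all fall in this range, with 0.38 for Cacnb1 and bounds of -1.03 and 1.03 for Cacna2d1.

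All members at least 2-fold apart relative to the shift were named, so the 120 not in the named set lay within 2-fold where measured. As deposited, 11 of their 56 measured genes were at least 2-fold lower in osteoclasts, where 17.5% of all measured genes were. None could be 2-fold higher, since the deposited difference is always below the one relative to the shift. Relative to the shift the 56 had differences between -0.995 and 0.96, with signals of at most 106.04 in osteoclasts and 226 in macrophages, both in P2rx7. The lowest, Kcnd1, a subunit of the A-type potassium current, gave 4.57 in osteoclasts and 38.8 in macrophages, under 2-fold only because its osteoclast signal was raised to the floor. Its second probe set above the floor in macrophages gave 3.86 in osteoclasts and 30.7 in macrophages, and the last was below the floor in both arrays.

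Genes that work beside these channels were read from 6 lists, and each list's counts stand against all measured genes, of which 7.11% were higher and 6.99% lower by 2-fold or more on this scale. Of 13 measured genes for extracellular ATP release and breakdown and for P2Y receptors, 5 were at least 2-fold lower in osteoclasts and 2 higher, with a median of -0.77. P2ry6, the receptor for UDP, gave 435 in osteoclasts and 1825 in macrophages (-1.64), and Entpd1, the ectoenzyme CD39 that breaks down ATP, gave 63.5 in osteoclasts and 240 in macrophages (-1.49). P2ry4 was below the floor in osteoclasts, at 10.6 against 42.9 in macrophages, and at least 1.24-fold lower. P2ry2 was at least 1.21-fold lower and P2ry13 at least 1.95-fold lower by the same reckoning. P2ry14, the receptor for UDP-glucose, gave 108 in osteoclasts and 63.0 in macrophages (1.21), and Entpd2 gave 30.8 in osteoclasts and 12.4 in macrophages, at least 1.48-fold higher. As deposited, 8 of the 13 were at least 2-fold lower, where 17.5% of all genes were, and none higher, where 3% were.

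Of 14 measured store-operated and store calcium channel genes, 1 was at least 2-fold higher and 1 lower, with a median of -0.18. Stim1, the calcium sensor of the endoplasmic reticulum, gave 71.3 in osteoclasts and 235 in macrophages (-1.29), and its second probe set -2.15. Orai2, a plasma membrane channel that STIM proteins open, gave 192 in osteoclasts and 123 in macrophages (1.08). Its other probe set gave 0.99. As deposited, 3 of the 14 were at least 2-fold lower, where 17.5% of all measured genes were. None was higher, where 3% were.

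Among 10 measured genes of calcium clearance and buffering 2 were at least 2-fold higher and none lower, with a median of -0.02. The first, S100a10, a partner of annexin A2 that carries several channels to the membrane, gave 4754 in osteoclasts and 2698 in macrophages (1.25), with all 3 probe sets between 1.15 and 1.60. Sri, the calcium-binding protein sorcin, gave 1490 in osteoclasts and 982 in macrophages (1.04). As deposited neither was 2-fold higher, and 2 other genes of the 10 were 2-fold lower, where 17.5% of all measured genes were.

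Of 12 measured chloride and proton partners 1 was at least 2-fold higher and none lower (median 0.20). It was Ttyh2, of the tweety family, with 398 in osteoclasts and 202 in macrophages (1.41), and its second probe set lay at 0.48. Of 6 measured sodium and other cation channels 1 was higher and none lower (median 0.08), namely Scn8a, a neuronal sodium channel. It gave 27.1 in osteoclasts and 8.94 in macrophages. With the macrophage signal at the receptor level, Scn8a was higher by at least 1.30-fold against the shift and not higher as deposited. Of 8 measured genes of the sodium pump and channel regulators none was 2-fold apart (median 0.26). The brightest, Atp1b3, a beta subunit of the sodium pump, gave 3466 in osteoclasts and 2942 in macrophages (0.67).

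**Figure D5:**
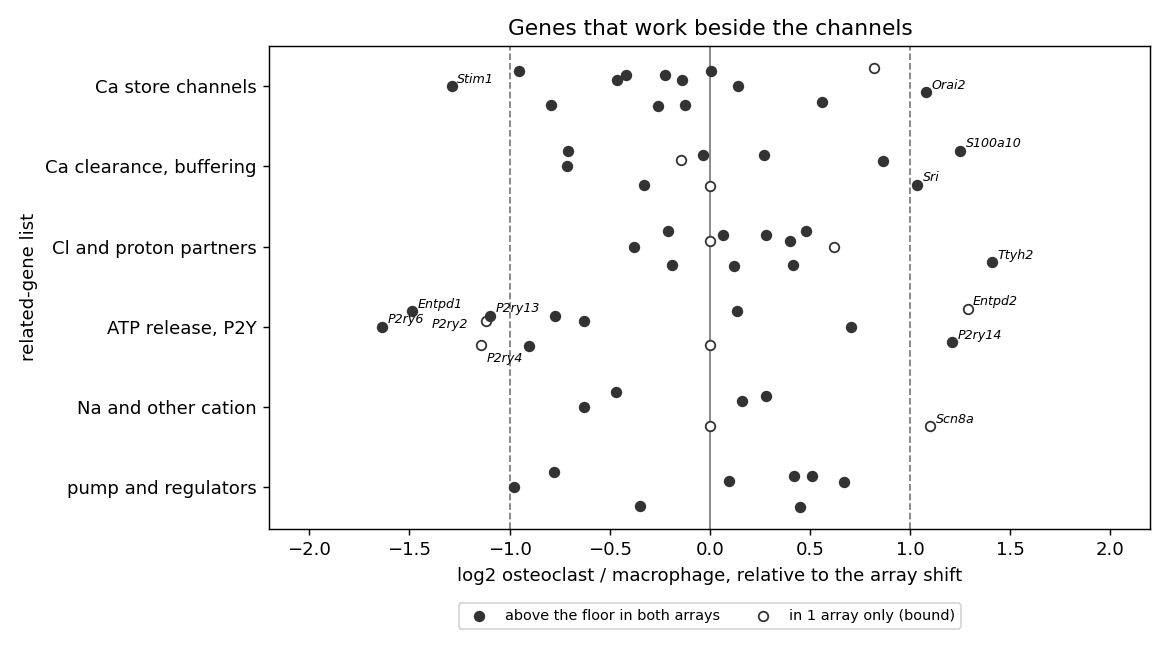
Points give the log2 difference, osteoclast over macrophage relative to the array shift, of the measured genes of 6 related lists. Genes at least 2-fold apart (dashed lines) are named, and open points are bounds. The list of ATP release and P2Y receptors has 5 genes to the left of -1, from P2ry6 at -1.64.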

How the data were processed

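The deposited table gives 1 linear intensity for each of 45101 probe sets on each of 2 arrays, 1 per group. The sources used here do not say how the authors condensed, background-corrected and scaled these deposited intensities, and the number of arrays limits the precision. Control probe sets (64) were not used. Of the others 34945 carried a single symbol in the platform annotation, 932 several and 9160 none. The Entrez identifiers of all 149 members were found in the RefSeq gene table of GRCm38.p6, with the same symbol. No sample column was left unused.

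Values were raised to the floor, put on the log2 scale and centred on the median shift with Python 3.11.15, pandas 2.3.3 and numpy 2.4.6. The procedure was checked on simulated arrays. The members, lists, markers and alternatives were chosen with earlier results of these data known. Named are the members at least 2-fold apart relative to the shift, the 15 with the highest mean signal and the brightest of each subfamily, and from each related list up to 3 genes at least 2-fold apart in each direction, or else the brightest. P2rx1, P2rx7, Clcn6, Clcn7, Trpm2, Trpm4, Lrrc8e, Kcnq1, Kcnd1, Kcna2, Kcna3 and Kcna4 were added after their values were seen. Alternatives were the scaling, the floor, the choice of probe set and a pseudocount.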

Additional observations from a re-analysis of the deposited data

How the results depend on the processing

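The floor and the scale decided the counts of channel genes. As deposited, 21 members rather than 6 were at least 2-fold lower in osteoclasts, where 17.5% rather than 6.99% of all measured genes were. With the floor at the 20th percentile, 127 members were measured, of which 21 were at least 2-fold higher and 19 lower. The shares of all measured genes were then 12.4% and 11.7%. Below this floor in both arrays were 22 members, against 8.21% of all genes. With the floor at the 60th percentile 31 were measured, 1 of them higher and 3 lower, against 5.79% and 6.63% of all measured genes. Below it in both arrays were 118 members, against 44.8% of all genes. At the receptor level 50 were measured, 3 of them higher and 4 lower, against 6.3% and 6.55%. Under it in both arrays were 99, against 36.7%. With log2(value + 16) and no floor, 9 of the 149 were higher and 5 lower, against 5.55% and 4.23% of all genes. These settings change how many members are counted or how dim values are treated. Of 226 differences of the 29 named members under the alternatives, 201 moved by less than the probe set SD and 25 moved by more. Of those at least 2-fold apart, 0 changed sign. Much of this was fixed in advance. Without centring, each named value moves by the shift, which is smaller than that SD. Most bright genes keep their exact value when the floor is changed or some probe sets are left out. The 201 are therefore no measure of robustness. Kcnk13, Lrrc8c and Kcnq1ot1 were at least 2-fold apart under all 8 alternatives, and Clic5 under 7, with a low of 0.9955 at the 60th percentile. The other members at least 2-fold apart were so under fewer than 8, P2rx5 in 7 of 8 (weakest 0.72), Trpv4 in 7 of 8 (weakest -0.49), Kcnh3 in 7 of 8 (weakest -0.30), Trpc4 in 5 of 6 (weakest 0.79), Clic6 in 4 of 6 (weakest -0.28), Kcnh7 in 4 of 7 (weakest 0.32) and Cacna1d in 3 of 8 (weakest -0.03). Where fewer than 8 alternatives are given, the gene was below the floor in both arrays under the rest. As the median of all probe sets of a gene, below-floor ones included, Kcnj11 (0.28), Cacng7 (0.51) and Trpc4ap (2.26) lay above the shift instead of below it, and P2rx4 (-1.26) passed 2-fold. The median over all members ranged from -0.54 to 0.14. No paired analysis was possible because each group is 1 array.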

Other observations

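A probe set annotated to both Lrrc8a and Phyhd1, not used above, gave 92.0 in osteoclasts and 94.5 in macrophages. One annotated to both Xndc1 and Trpc2 gave 31.4 in osteoclasts and 67.7 in macrophages. On the X chromosome lie 5 members, of which Clcn5, Cacna1f and Kcnd1 were measured and Kcne1l and Trpc5 were below the floor in both arrays. Their values stand beside the difference in Xist between the arrays, and the part of sex in them was not tested.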
